A study of Capra hircus with 2 samples.

Results

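The miR-26 family of the goat mammary gland, made up of miR-26a and miR-26b, was followed in small RNA libraries of the dry period and peak lactation. Both members were taken by name from the study's list of 346 conserved miRNAs, and they are 2 of these 346. Each stage was represented by 1 library, made from mammary gland RNA pooled from 3 Xinong Saanen dairy goats, and the labels name no treatment for either stage. The goats were 2.5 years old. For the time since lambing the sources disagree: the labels pair 75 days with the dry period and 320 with peak lactation, the text of the study has the reverse, and the labels' extraction protocol names another early day. The stages were therefore taken from the state that the labels give each sample. The number of clean reads in each library equals the number that the study reports for the stage of that name. A pooled library shows no spread between goats. All intervals below are exact binomial (Clopper-Pearson) 95% intervals unless another kind is named, and they cover the counting of reads alone, not differences between goats or library preparations. With 1 library per stage no test of the stages was possible.

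MicroRNAs are short RNAs that guide Argonaute proteins to messenger RNAs, chiefly by pairing of the seed, bases 2 to 8, with the target. In mammals the genes of miR-26a and miR-26b lie inside the CTDSP genes, which encode small phosphatases that act on the tail of RNA polymerase II, and are often transcribed together with these hosts. EZH2, a histone methyltransferase, is a well known target of the family. In the goat annotation of RefSeq (assembly ARS1.2), MIR26A falls within the span of CTDSPL and MIR26B within that of CTDSP1. Mature miRNAs can be trimmed at the 3′ end or receive single bases there, mostly U or A, from terminal nucleotidyltransferases.

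The listed mature sequences are shown first, 5′ to 3′ with the seed in capitals, because they show what the members share and where they can be told apart.
miR-26a: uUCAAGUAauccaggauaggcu
miR-26b: uUCAAGUAauucaggauagguu
Both are 22 nt long and identical at 20 of 22 positions. The seed UCAAGUA was found in these 2 sequences and in no other of the 346 listed miRNAs. Counted from the 5′ end, the members differ by C11U and C21U, with the base of miR-26a given first. A tag, that is a distinct read sequence with its count of reads, was given to a member when it matched the listed sequence for at least 18 nt from base 1, so base 11 decided each assignment. In tags of 21 nt or longer that matched over the first 20 bases, base 21 offered a second check. The base of the other member stood there in 0.49% of the miR-26a reads of the dry period library (183 of 37014) and in 0.37% of those at peak lactation (91 of 24357). For miR-26b the shares were 0.35% (129 of 36651) and 0.46% (78 of 17092). Reads of one member were thus at most rarely found with the second mark of the other.

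Depth was similar, with 14851375 clean dry period reads and 15712891 from peak lactation. Tags of conserved miRNAs took 61.1% of the clean reads in the first library and 14.4% in the second. Every miRNA level therefore depended on whether all clean reads or the reads of miRNAs were used as the denominator. The study, which matched reads to miRNA precursors, reported more such reads at peak lactation and fewer in the dry period than were counted here. With its totals the log2 ratios per conserved miRNA read would be lower than those given below, and their sign was not tested.

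Both members were less abundant per clean read at peak lactation, and both made up a larger part of the conserved miRNA reads counted here. For miR-26a the dry period gave 40073 reads, or 2698 reads per 1000000 clean reads (RPM, 95% interval 2672 to 2725). Peak lactation gave 25526 reads, or 1625 RPM (1605 to 1645). For miR-26b the dry period library held 37501 reads, or 2525 RPM (2500 to 2551), and the peak lactation library 17458 reads, or 1111 RPM (1095 to 1128). The levels of each member differed between the libraries by far more than the counting error, and the gap was wider for miR-26b.

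The log2 ratio of peak lactation over dry period per clean read was -0.73 for miR-26a (95% interval -0.75 to -0.71) and -1.18 for miR-26b (-1.21 to -1.16). Of the members only miR-26b was past a log2 ratio of -1, as were 181 of the 257 conserved miRNAs with at least 1 RPM in a library (70.4%), and neither was past a ratio of 1, as 3 of the 257 were (1.17%). Lower values at peak lactation were the rule, since 247 of the 257 (96.1%) had a log2 ratio below 0. The median of the 257 log2 ratios was -1.44, with quartiles of -2.15 and -0.92. Relative to that median miR-26a was higher by 0.71 and miR-26b by 0.25 on the log2 scale. The value of miR-26a exceeded that of 208 of the 257 miRNAs, and the value of miR-26b that of 154. Both members were therefore among the miRNAs whose share of the clean reads was lower by less than the median, and miR-26a lay above the upper quartile.

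Per read of conserved miRNAs as counted here, the direction was the opposite for both members. The share of miR-26a in these reads was 0.441% in the dry period library and 1.13% at peak lactation, a log2 ratio of 1.35. The share of miR-26b was 0.413% and 0.770%, a log2 ratio of 0.90. With this denominator, 93 of the 257 miRNAs (36.2%) were past a log2 ratio of 1, miR-26a among them, and 188 (73.2%) were above 0. Neither member was below -1, as 19 of the 257 were (7.39%). The median was 0.64. A change of denominator moves every log2 ratio by the same amount, so the order of the miRNAs and their distances from the median are the same on both scales by construction. Whether either member is called lower or higher at peak lactation thus depended on the denominator.

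**Figure D1:**
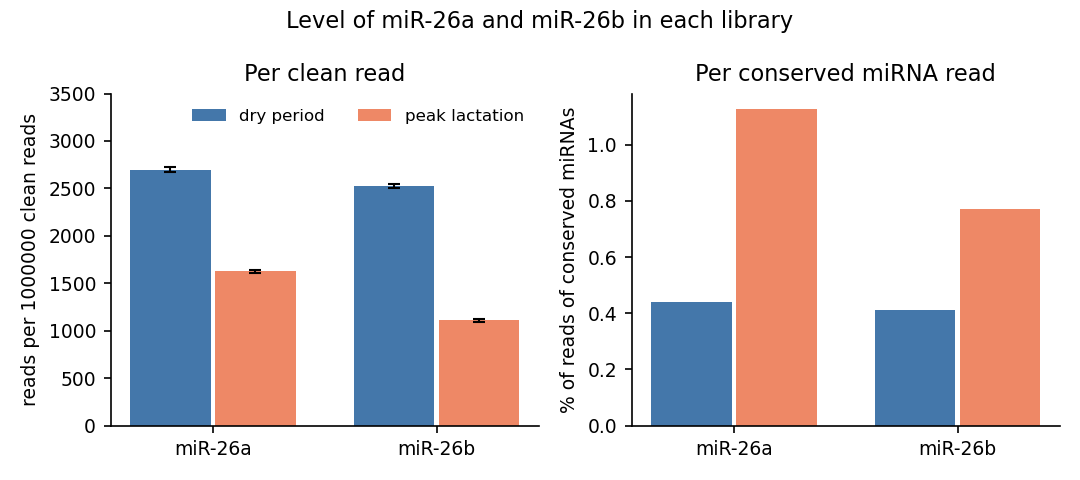
Level of miR-26a and miR-26b in the dry period (blue) and peak lactation (orange) libraries, as reads per 1000000 clean reads with 95% counting intervals (left) and as a percentage of conserved miRNA reads (right), 1 library per stage. Both members are lower at peak lactation on the left, 2698 against 1625 RPM for miR-26a and 2525 against 1111 RPM for miR-26b, and higher there on the right.

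**Figure D2:**
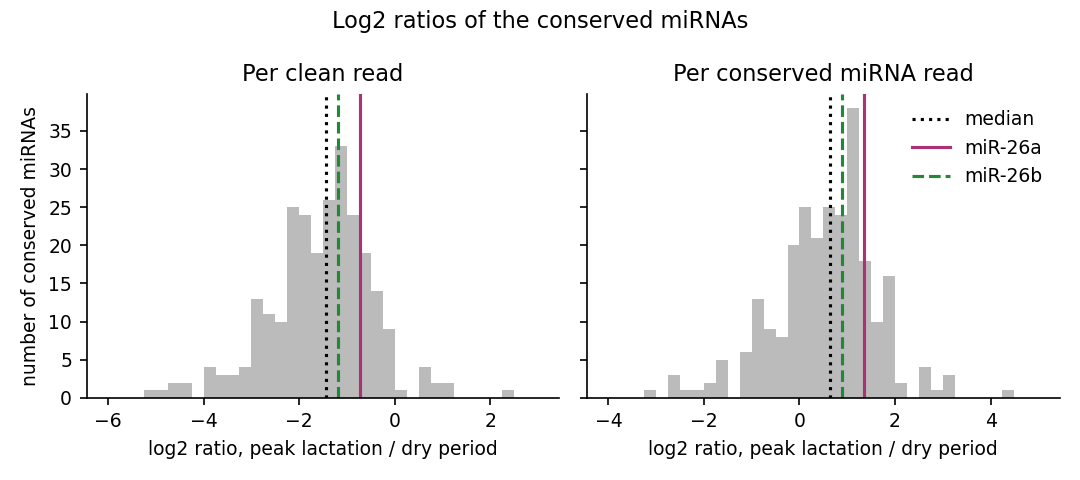
Histograms of the log2 ratio of peak lactation over dry period for the 257 conserved miRNAs with at least 1 RPM in a library, per clean read (left) and per conserved miRNA read (right). The line of miR-26a (solid) and that of miR-26b (dashed) both lie to the right of the median (dotted) with either denominator, at -0.73, -1.18 and -1.44 on the left.

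In rank by reads among the 346 miRNAs, miR-26a stood 23rd in the dry period library and 18th at peak lactation, and miR-26b stood 25th and 22nd. In the dry period library the members were neighbours, separated only by miR-2284x (37747 reads), a member of a ruminant miRNA family. The counting interval of miR-26b overlapped that of miR-2284x, and the interval of miR-26a overlapped that of miR-25 (40513 reads), which ranked just above it below miR-145 (49030 reads). Below miR-26b followed miR-152 (35306 reads) and miR-185 (33375 reads), whose intervals did not overlap that of miR-26b. At peak lactation 3 miRNAs stood between the members. There miR-26a came after miR-101 (31101 reads) and miR-148a (27012 reads) and before miR-199a-3p (20177 reads) and miR-146b (20046 reads). Between miR-146b and miR-26b stood miR-152 (19787 reads), and miR-191 (13940 reads) and miR-378 (13762 reads) came after miR-26b. None of these neighbours overlapped a member in its counting interval at peak lactation. In both libraries miR-26a was the higher member when all 3′ ends were counted.

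The ratio of the members within a library does not depend on the denominator. There were 0.936 reads of miR-26b per read of miR-26a in the dry period library (95% interval 0.923 to 0.949) and 0.684 at peak lactation (0.671 to 0.697). The members were thus near balance in the dry period, where miR-26a made up 51.7% of their 77574 reads, and miR-26a made up 59.4% of their 42984 reads at peak lactation. The log2 change of the ratio was -0.45 (95% interval -0.49 to -0.42, from the normal approximation of the log odds ratio), so that miR-26a gained on miR-26b by a factor of 1.37. The order in the dry period rested on the end variants: with only tags identical to the listed sequences, the ratio was 1.22 there and 0.912 at peak lactation, and the log2 change was -0.42. Per clean read the members together held 5223 RPM in the dry period and 2736 RPM at peak lactation, a log2 ratio of -0.93 (-0.95 to -0.92).

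Among the 77 miRNAs with at least 1000 reads in each library, both members included, the log2 ratio per clean read nearest to that of miR-26a was found for miR-126 (-0.74), a miRNA of endothelial cells. It was followed by miR-30d (-0.70) and miR-10b (-0.68). Nearest to miR-26b were miR-140 (-1.18), miR-205 (-1.25), a miRNA of basal epithelial cells, and miR-23b-3p (-1.11). The likeness is that of a single ratio between 2 libraries.

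The miRNAs of cell types that a mammary sample can hold were read beside the members, all per clean read, and no listed marker was at 0. For comparison, 70.4% of the 257 conserved miRNAs with at least 1 RPM in a library were below -1 and 1.17% above 1, with a median of -1.44. The epithelial list (miR-200a, miR-200b, miR-200c, miR-141, miR-429 and miR-205) was present in both libraries, with sums of 2687 and 1342 RPM. Its median log2 ratio was -1.10, and 3 of its 6 miRNAs were below -1. The list of stroma and smooth muscle had a median of -2.48, with 5 of 6 below -1 and sums of 22050 and 6529 RPM. The endothelial list had a median of -0.48 (0 of 2 below -1, 129 and 81.4 RPM), the leukocyte list -1.01 (4 of 7, 1811 and 1462 RPM, of which miR-146b alone held 1300.2 and 1276) and the muscle list -1.61 (3 of 4, 7241 and 3847 RPM). Of the muscle sums miR-1 alone held 7175 and 3835 RPM, and at -0.90 it was the miRNA of that list not below -1. The others were low, with 61.4 and 10.1 RPM for miR-206, 3.37 and 1.34 for miR-133a, and 1.41 and 0.38 for miR-133b. The red blood cell list had a median of 1.06, with 2 of 3 above 1 and sums of 110 and 190 RPM. Per conserved miRNA read the list medians were 0.98 for epithelium, -0.39 for stroma and smooth muscle, 1.61 for endothelium, 1.08 for leukocytes, 0.47 for muscle and 3.14 for red blood cells, so that those of epithelium, endothelium, leukocytes and muscle had the opposite sign on this scale. The log2 ratios of both members lay between the medians of the endothelial and the muscle lists. In pooled tissue, fewer cells of a type and less miRNA per cell cannot be told apart, and the part of these cell types in the values of miR-26a and miR-26b was not tested.

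Most reads of both members ended exactly as listed, more so for miR-26b. Identical reads made up 55.0% of the miR-26a reads in the dry period library (95% interval 54.5 to 55.5%) and 54.6% at peak lactation (54.0 to 55.2%). For miR-26b they made up 71.5% (71.0 to 71.9%) and 72.8% (72.1 to 73.4%). Among the 75 other miRNAs with at least 1000 reads in each library the median share was 43.5% and 43.0%. In the dry period library 21 of the 75 had a larger share than miR-26a, and 8 a larger share than miR-26b.

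The members also differed in the letters added to the 3′ end. The main variants are shown here, because they share the seed and the body of the listed sequences and differ only in the end. Capitals mark the letters beyond the stretch that is identical to the listed sequence.
miR-26a with 1 U: uucaaguaauccaggauaggcuU
miR-26a with 2 U: uucaaguaauccaggauaggcuUU
miR-26a with 1 A: uucaaguaauccaggauaggcuA
miR-26a with A for the last base: uucaaguaauccaggauaggcA
miR-26a without its last 2 bases: uucaaguaauccaggauagg
miR-26b with 1 U: uucaaguaauucaggauagguuU
miR-26b with 1 A: uucaaguaauucaggauagguuA
miR-26b without its last base: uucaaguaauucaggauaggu
No precursor sequence was compared, so whether an added letter is also encoded next to the mature miRNA was not determined.

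A single added U was common to both members. It was found in 8.06% of the miR-26a reads in the dry period library (3228 reads) and in 10.5% at peak lactation (2674 reads). For miR-26b the shares were 5.74% (2154 reads) and 5.31% (927 reads). Counted from the listed ends, a second U was found almost only on miR-26a. The variant with 2 U held 5.76% of its reads in the dry period (2310 reads, 95% interval 5.538 to 5.997%) and 7.55% at peak lactation (1926 reads, 7.22 to 7.88%). On miR-26b the same addition held 0.075% (28 reads) and 0.074% (13 reads).

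Per read with 1 U there were 0.716 miR-26a reads with 2 U in the dry period library (0.678 to 0.755) and 0.720 at peak lactation (0.679 to 0.764). For miR-26b these ratios were 0.013 and 0.014. These intervals overlapped between the stages within each member, and they were far apart between the members. The addition of 3 U was found on 169 and 113 reads of miR-26a, and on 0 of the 37501 and 0 of the 17458 reads of miR-26b. For the other miRNAs with at least 1000 reads in each library, the median share with 2 U was 0.16% in both libraries. Only 2 of these 75 were above miR-26a in each library. They were named after their values were seen, and in the dry period library they were miR-148b (16.7%) and miR-24-3p (11.1%).

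Reads of miR-26a that carried only U after the full sequence made up 14.3% in the dry period (13.9 to 14.6%) and 18.5% at peak lactation (18.02 to 18.98%), 4.21 percentage points more. For miR-26b the share was 5.82% (5.59 to 6.06%) and 5.38% (5.05 to 5.73%), 0.44 points less, and here the intervals overlapped. Over the 75 other miRNAs the median difference between the libraries was -0.05 points, with 32 higher and 42 lower at peak lactation. The gain of miR-26a was exceeded by 1 of the 75, miR-181b (11.2% and 16.7%, on 796 and 176 reads with U only), also named after its value was seen.

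A single added A followed the full sequence in 5.96% of the miR-26a reads in the dry period (5.73 to 6.20%) and in 6.36% at peak lactation (6.06 to 6.66%). For miR-26b the shares were 3.38% (3.201 to 3.569%) and 3.21% (2.95 to 3.48%). For both members the intervals of the stages overlapped. The combination of A then U again separated them, with 528 and 397 reads on miR-26a and 5 and 2 reads on miR-26b.

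Shortened ends held a smaller share of miR-26a at peak lactation. Reads under 22 nt made up 12.8% of its reads in the dry period (12.5 to 13.1%) and 9.31% at peak lactation (8.96 to 9.68%). For miR-26b they made up 12.1% (11.7 to 12.4%) and 12.2% (11.7 to 12.7%). The difference (peak lactation minus dry period) in reads under 22 nt was -3.47 percentage points for miR-26a. It was lower still for 11 of the 75 other miRNAs, and below 0 for 37 of them. The miR-26a tag without the last 2 bases held -1.69 of these points, with 3.98% (1594 reads) in the dry period and 2.28% (583 reads) at peak lactation. On miR-26b the tag without the last base was the most frequent variant, with 9.77% (3662 reads) and 10.1% (1769 reads). The listed miR-26b ends in UU, so a shortened read that gained U again cannot be told apart from this tag or from the listed sequence. With further U such a read is counted in the tags with added U, with fewer U than it gained. The classes of added U are therefore not strictly alike between the members, since the listed miR-26a ends in CU. Replacement of the last base by A was found on 4.98% and 3.99% of the miR-26a reads and on 3.557% and 3.001% of the miR-26b reads. The median of the other miRNAs was 0.88% and 0.78%, but it includes miRNAs whose listed sequence ends in A. Those cannot show this replacement and count as 0, so the members' place among the miRNAs that can was not determined. The mean length of the miR-26a reads was 22.13 nt in the dry period and 22.29 nt at peak lactation, and that of the miR-26b reads 21.99 and 21.98 nt.

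**Figure D3:**
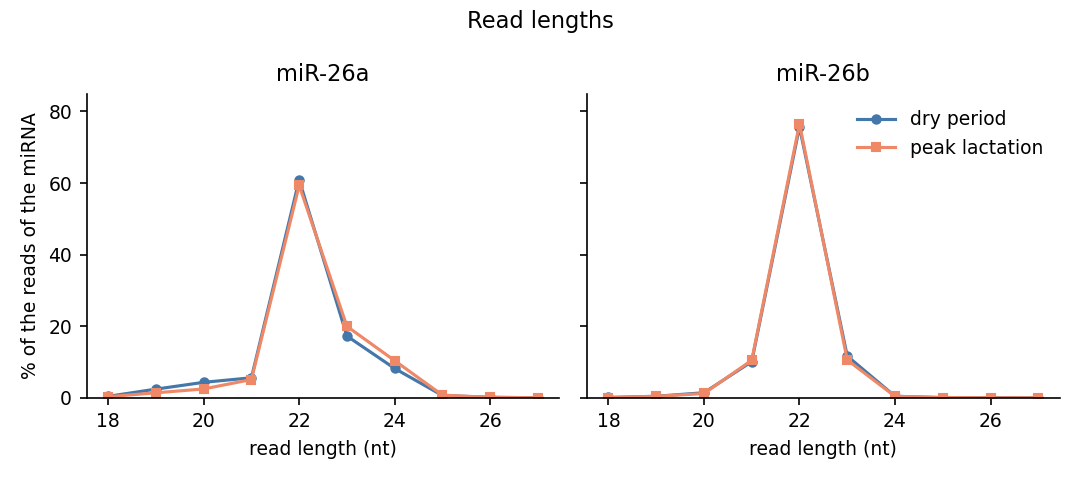
Read lengths of miR-26a (left) and miR-26b (right) as a percentage of the reads of each member in each library, dry period in blue and peak lactation in orange. Reads of 24 nt make up 8.20% and 10.4% of miR-26a but 0.44% and 0.42% of miR-26b, and the curves of the libraries nearly coincide for miR-26b.

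**Figure D4:**
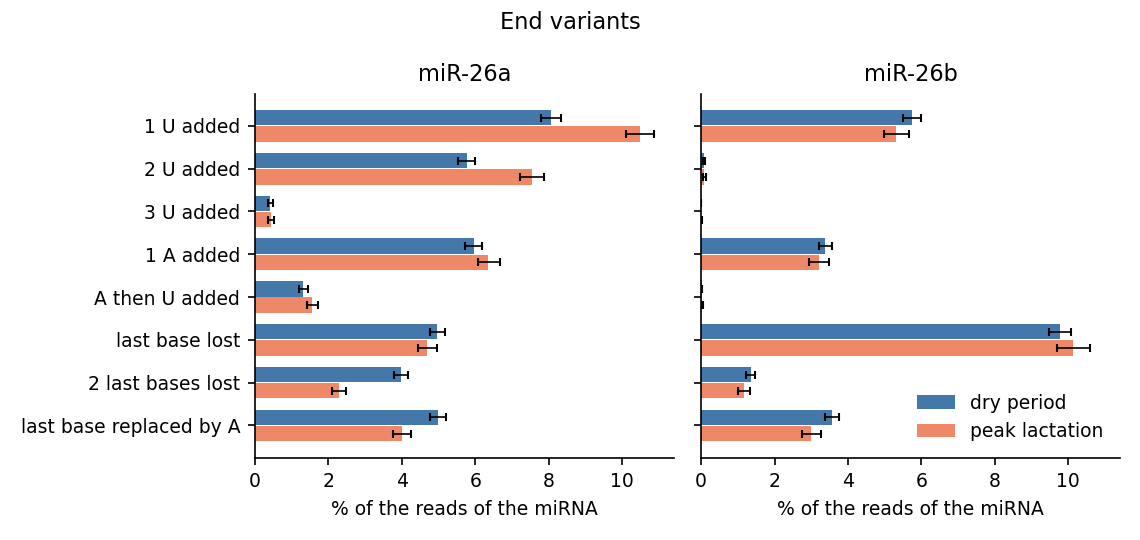
Share of the reads of miR-26a (left) and miR-26b (right) held by each 3′ end variant in the dry period (blue) and peak lactation (orange) libraries, with 95% counting intervals. The bars for 1 U and 2 U are longer at peak lactation for miR-26a only, and the bar for 2 U is close to 0 for miR-26b.

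The log2 ratio per clean read therefore varied among the tags of miR-26a and little among those of miR-26b. Of the tags with at least 100 reads in a library, 17 belonged to miR-26a and 10 to miR-26b, and all of them were lower per clean read at peak lactation. For comparison, 96.1% of the 257 conserved miRNAs were below 0 on this scale and 70.4% were below -1. Per conserved miRNA read every ratio moves up by the same amount, and all of these tags are then higher at peak lactation. The log2 ratios of the miR-26a tags ran from -1.55 to -0.34, and 6 of the 17 were below -1. The tags with 1 U (-0.35, 95% interval -0.43 to -0.28) and 2 U (-0.34, -0.43 to -0.26) were lower by the least, the listed sequence came between (-0.74, -0.77 to -0.71), and the tags that ended after base 20 (-1.53, -1.67 to -1.39) and base 19 (-1.55, -1.76 to -1.35) were lower by the most. The 10 tags of miR-26b ran from -1.57 to -1.13, and all 10 were below -1. Among them the listed sequence stood at -1.16 (-1.19 to -1.13) and the tag with 1 U at -1.30 (-1.41 to -1.19).

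**Figure D5:**
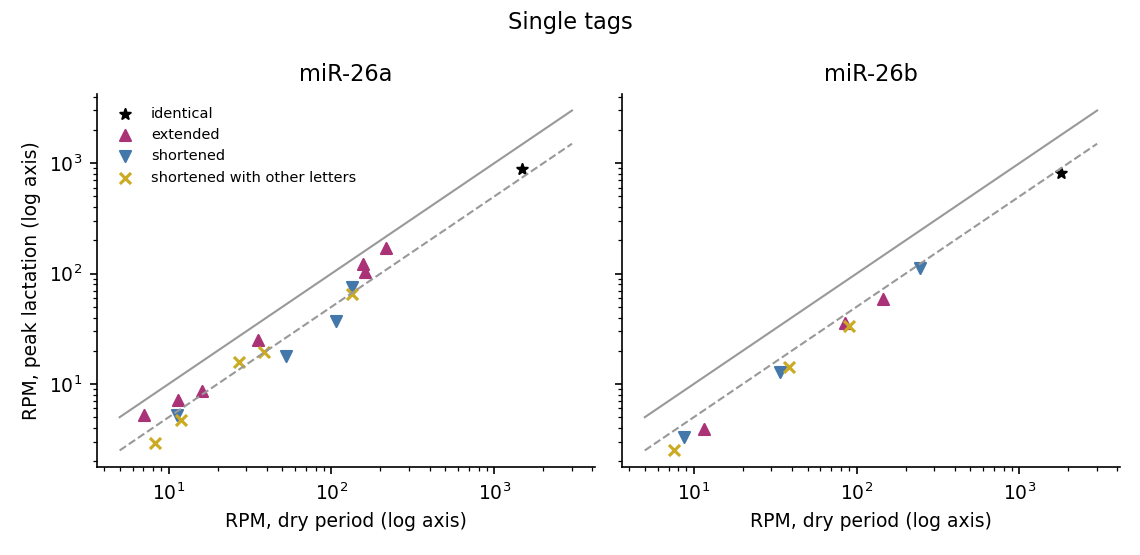
Level of each tag with at least 100 reads in a library, in reads per 1000000 clean reads (RPM) on log axes, for the 17 tags of miR-26a (left) and the 10 of miR-26b (right); symbols give the kind of 3′ end, the solid line marks equal levels and the dashed line a log2 ratio of -1. Tags of miR-26a lie on both sides of the dashed line, with the most abundant extended tags above it, and tags of miR-26b all lie below it; per conserved miRNA read the members' totals were higher at peak lactation instead.

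At the 5′ end, where the seed is set, both members varied little. Tags that held bases 2 to 19 of miR-26a but did not match from base 1 had 570 dry period reads and 394 from peak lactation, which were 1.40% (1.29 to 1.52%) and 1.52% (1.37 to 1.68%) of the reads with these tags included. For miR-26b they had 327 and 157 reads, or 0.86% (0.77 to 0.96%) and 0.89% (0.76 to 1.04%). Reads that began at base 2, and so had a seed moved by 1 base, made up 0.35% and 0.45% of miR-26a and 0.15% and 0.18% of miR-26b. The intervals of the stages overlapped for each of these shares.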

How the data were processed

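Small RNA of mammary gland tissue was sequenced by the authors on an Illumina (Solexa) instrument. CASAVA is named in the submitters' processing notes, without a version. Before deposit the authors filtered the reads on quality, on the 3′ and 5′ adaptors, on an insert of at least 18 nt and on poly(A), and deposited the count of clean reads of each distinct tag with its length. These counts were not normalized and carry no coordinates.

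Sequences and names of 346 conserved miRNAs came from the study's supplementary list, whose counts were not used, and are written with U in place of T. Each tag went to the miRNA it matched without mismatch over the most bases from base 1 (at least 18 nt, any 3′ end), and tags that matched several equally were counted for each. Counts were divided by clean reads. For log2 ratios a count of 0 was set to 0.01 RPM, and at least 1 RPM in a library was required. With 1 library per stage no model with replicates could be fitted, so a log2 ratio past 1 in size served as the call. For scale, 3 reads correspond to 0.20 RPM in the dry period and 0.19 RPM at peak lactation, but no floor of 3 reads was applied. PCR copies of a molecule cannot be recognized. The steps were tested on simulated data.

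The members, the marker lists and the comparisons were chosen with earlier results of these data known. Named miRNAs are the members, the 2 neighbours on each side in rank, the 3 with the nearest log2 ratio among those with at least 1000 reads in each library, and the marker lists. Outside this rule, miR-148b, miR-24-3p and miR-181b were named after their values were seen. Alternatives covered counting rules, denominators, scaling in R 4.3.3 by edgeR 4.0.16 (TMM) or DESeq2 1.42.0 (size factors), filters, 1 added read and an Audic-Claverie p. The other steps ran in Python 3.11.15 with scipy 1.17.1, numpy 2.4.6 and, for figures, matplotlib 3.10.9.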

Additional observations from a re-analysis of the deposited data

How the results depend on the processing

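With 1 library per stage, no replicate could be left out. No paired analysis was possible because each stage had 1 sample. Under the other counting rules the log2 ratios of both members kept their sign, from -0.74 to -0.71 for miR-26a and from -1.19 to -1.16 for miR-26b, the last with identical tags only (-1.16). The denominators moved them most. For miR-26a and miR-26b the log2 ratios were 1.35 and 0.90 per conserved miRNA read, 0.40 and -0.0522 without let-7 and miR-98, 0.57 and 0.12 with TMM factors, 0.66 and 0.21 with DESeq2 size factors, and -0.23 and -0.68 per clean read of 20 to 24 nt. The numbers of miRNAs lower and higher past a log2 ratio of 1 in size, 181 and 3 per clean read, became 19 and 93 per conserved miRNA read, 67 and 13 without let-7 and miR-98, 52 and 24 with TMM factors, and 47 and 30 with DESeq2 size factors. Per clean read of 20 to 24 nt these numbers were 122 and 9. Without the filter on low counts they were 241 and 12, out of 346 miRNAs. The log2 change of the miR-26b to miR-26a ratio stayed negative under all 5 counting rules tried, from -0.47 to -0.42 (-0.42 with identical tags only). With identical tags only the ratio itself was 1.22 for the dry period library and 0.912 for that of peak lactation, and with a stretch of at least 20 nt it was 0.962 in the dry period.

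A stretch of at least 20 nt gave identical shares of 57.1% and 55.9% for miR-26a and 72.1% and 73.5% for miR-26b (dry period first, then peak lactation), and a share with only U added of 14.8% for miR-26a in the dry period. When each unique tag was counted once, the identical share was 0.543% and 0.621% for miR-26a and 0.763% and 1.03% for miR-26b, since 1 tag is identical. The share of tags with only U added was then 2.17% and 3.11% for miR-26a and 2.29% and 2.06% for miR-26b. Reads of 24 nt or longer, a measure chosen after seeing the data that does not use the listed last bases, made up 9.06% and 11.4% of miR-26a and 0.589% and 0.682% of miR-26b. These include the reads with 2 U (2310 and 1926 of the 3630 and 2908 long miR-26a reads), so the measure is not independent of the U shares, and 6 of 75 other miRNAs gained more in it than miR-26a.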
